A study of Mus musculus with 4 samples.

Results

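The genes described here are Scn4b, Hcn2, Hcn4, Gja1 and Gja5, which encode a sodium channel subunit, a pair of pacemaker channels and a pair of gap junction proteins of the heart. They were taken by symbol, without use of a measured value, and each of the 5 was found once among the 55401 genes of the table. RNA of the heart was sequenced from wild-type mice and from Ctcf heterozygous mice (Ctcf +/R567W), all 8 weeks old, with 2 libraries per genotype. The CTCF-R567W substitution was introduced by CRISPR/Cas9 editing, and no Cre or tissue-limited promoter is described, so the heterozygous state is not particular to the heart. The labels number the libraries of a genotype without stating that they come from separate animals, so p-values measure the spread between these libraries, which may be partly technical. Libraries are given in the order wild type 1, wild type 2, heterozygous 1 and heterozygous 2 throughout.

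The cardiac impulse starts in the sinoatrial node, where channels of the HCN family carry an inward current on hyperpolarisation that drives the diastolic depolarisation. It then passes from cell to cell through gap junctions built of connexins, and the fast upstroke in working myocardium and Purkinje fibres comes from the voltage-gated sodium channel, whose beta subunits tune its gating and its place in the membrane. Pacemaker and conduction cells are a small part of the heart. In RNA of the heart, fewer cells of a type and less RNA per cell cannot be told apart.

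Relative transcript abundances (TPM) had been deposited. They are corrected for transcript length but sum to a fixed total, so they were divided by a median-of-ratios factor for each library (scaled TPM). The depth of the libraries is unknown because TPM keep none. Genes of the mitochondrial genome held 61.1% to 68.6% of the TPM. Over the tested genes the scaling brought the median log2 fold change to -0.01, against -0.35 with TPM as deposited, and a member's direction is therefore given under both. Ctcf stood at 6.15, 5.99, 7.48 and 5.71 scaled TPM (log2 fold change 0.09, adjusted p = 0.834, limma), and TPM do not show which allele was read. As deposited Ctcf was lower in both heterozygous libraries (log2 fold change -0.29), as were 67.8% of the tested genes. Cardiomyocyte markers of the fixed list summed to between 15454 and 18080 scaled TPM, so the libraries carry the labelled tissue. The order of the summed atrial markers differed between libraries of 1 genotype and is given beside Gja5.

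The promoters of Hcn2 and Hcn4, the pacemaker channels whose libraries separated by genotype on scaled TPM, are shown as the sequence context of those genes. Each run is the 250 bases before the RefSeq start on the plus strand of GRCm38.p6, at chr10:79716384-79716633 for Hcn2 and chr9:58822699-58822948 for Hcn4. Capitals mark the single match to a searched motif, a T-box core (AGGTGT) read on the minus strand 233 bases before the Hcn4 start.
Hcn2: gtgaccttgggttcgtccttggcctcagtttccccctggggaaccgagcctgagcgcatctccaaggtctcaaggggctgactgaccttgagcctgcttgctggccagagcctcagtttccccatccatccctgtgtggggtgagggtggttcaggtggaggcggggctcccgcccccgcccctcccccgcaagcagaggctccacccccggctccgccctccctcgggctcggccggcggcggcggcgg
Hcn4: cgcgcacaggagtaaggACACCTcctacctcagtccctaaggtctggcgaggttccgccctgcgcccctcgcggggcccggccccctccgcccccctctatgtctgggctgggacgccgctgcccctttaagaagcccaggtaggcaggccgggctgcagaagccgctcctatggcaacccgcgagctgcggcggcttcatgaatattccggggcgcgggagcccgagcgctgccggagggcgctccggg
The Hcn2 window ends at the GENCODE start of the gene, and the Hcn4 window 463 bases before it. Scn4b also separated, but 229 bases of its window lie inside the GENCODE gene model, which starts before the RefSeq one, so that window is not shown as a promoter. Both windows shown are rich in G and C, with 70.4% for Hcn2 and 71.2% for Hcn4 against a median of 52.4% over 32851 RefSeq windows of the same length. They hold 16 and 25 CpG dinucleotides in that order. The window of Gja5 had 56.4% G and C and lies wholly inside the GENCODE gene model, and that of Gja1 had less. The T-box core was found in 11.8% of all windows. An NKX2-5 core (AAGTG) was found in the window of Gja5, 62 bases before the start, and in 40.7% of all windows. Neither a core of the CTCF motif (in 2.07% of all windows) nor a TATA box (TATAAA, in 12.4%) was found on either strand in the windows shown. A match is a string of letters and not a measured site, and no match says only that these letters are not in the window.

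Gja1 was the most abundant, at 18.7 to 22.4 scaled TPM, above 93.1% to 94.7% of the genes listed above 0 in its library. Hcn2, at 0.868 to 1.68, and Gja5, at 0.656 to 1.44, came next, and their ranges overlapped. Scn4b, at 0.146 to 0.568, and Hcn4, at 0.207 to 0.316, were the lowest, with overlapping ranges that both lay under that of Gja5. Hcn2 and Gja1 passed the filter of a mean of 1 TPM and entered the main test. Gja5, with a mean of 0.99 TPM, fell just under it, and Scn4b (0.418) and Hcn4 (0.258) fell well under it, so these 3 were tested in fits with a lower filter or none.

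**Figure D1:**
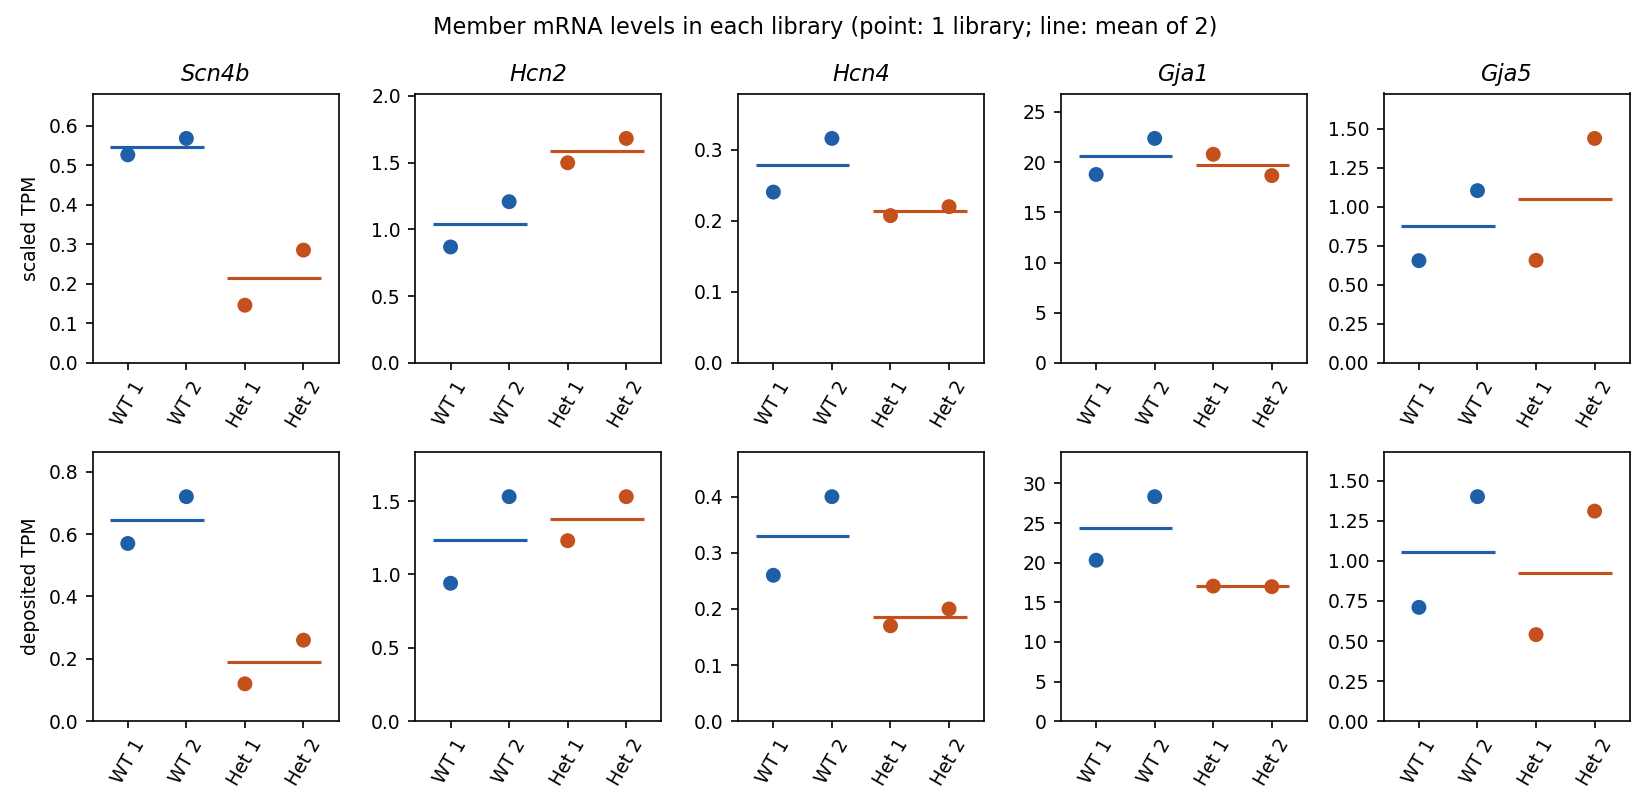
Level of each member in the 4 libraries (top, scaled TPM; bottom, TPM as deposited), with points for libraries and lines for genotype means. Scn4b and Hcn4 are lower in both heterozygous libraries on both scales, Hcn2 is higher only on scaled TPM, Gja1 is lower only as deposited, and Gja5 overlaps on both.

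No member was called by limma, for which a gene needed an adjusted p under 0.05 together with a fold over 1.5. It called 3 of 10036 tested genes (0.0299%), and 8 of 15675 (0.0510%) when the minimum was a mean of 0.1 TPM, which all 5 members reach, with a pseudocount of 0.1. Scn4b and Hcn4 were lower in both heterozygous libraries than in both wild-type ones, and Hcn2 was higher. Of the genes with a mean of at least 0.1 TPM, 22.6% were separated as lower and 22.2% as higher in this way, so separation by itself is common in these libraries. As deposited, 67.8% of the tested genes were separated as lower and 2.32% as higher, so a lower value on that scale is the usual case. With 2 libraries against 2, the smallest p of a two-sided exact permutation test is 0.333, and Scn4b, Hcn2 and Hcn4 each had that value.

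Scn4b encodes the beta-4 subunit of the sodium channel, a membrane protein with 1 transcript model and 5 exons on chromosome 9 (45138395 to 45154152, plus strand, GENCODE annotation of mm10). It was listed at 0.57 and 0.72 TPM in the wild-type libraries and at 0.12 and 0.26 TPM in the heterozygous libraries. On the scaled values it was 0.527 and 0.568 against 0.146 and 0.286. The wild-type libraries lay close together, both above either heterozygous library, and the heterozygous libraries differed from each other by 1.95-fold. The means were 0.547 ± 0.0293 and 0.216 ± 0.0986 scaled TPM (SD, n = 2), a wild-type level 2.54 times the heterozygous one. Among 4010 genes of similar level (a mean of 0.2 to 1 TPM), 21.4% were separated as lower, and 4.56% had in addition a heterozygous mean more than 2-fold lower. In the fit with no filter the log2 fold change of Scn4b was -0.35 (SE 0.09, 95% interval -0.59 to -0.11, unadjusted p = 0.0142, adjusted p = 0.522, limma). Of the 24424 genes in that fit, 4.02% were lower at an unadjusted p under 0.05. The pseudocount of 1 shrinks a gene this low, and with 0.1 in its place the log2 fold change was -1.07. It was tested with that pseudocount and a mean of at least 0.1 TPM (95% interval -1.89 to -0.25, unadjusted p = 0.0197, adjusted p = 0.415, limma). Of the 15675 genes in that fit, 5.14% were lower at an unadjusted p under 0.05.

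Scn2b, which lies 8325 bases before Scn4b on chromosome 9, was at 0.046, 0.047, 0.110 and 0.165 scaled TPM. It encodes another beta subunit and was higher in both heterozygous libraries, the opposite order to Scn4b, at a level close to the last deposited decimal.

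Hcn2 and Hcn4 encode channels of the hyperpolarisation-activated, cyclic nucleotide-gated family. HCN4 is the main pacemaker channel of the sinoatrial node, and HCN2 is found more broadly in heart and brain. Hcn2 lies on chromosome 10 (79716634 to 79736108, plus strand, 2 transcript models of at most 9 exons) and Hcn4 on chromosome 9 (58823412 to 58863175, plus strand, 8 exons in 1 transcript model).

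Hcn2 was listed at 0.94 and 1.53 TPM in wild-type and at 1.23 and 1.53 TPM in heterozygous libraries. On scaled values it was 0.868 and 1.21 against 1.5 and 1.68. Both heterozygous libraries were above both wild-type libraries after scaling, while the groups overlapped as deposited. The means were 1.04 ± 0.240 and 1.59 ± 0.129 scaled TPM (SD, n = 2). On the log2 scale the fold change was 0.35 (SE 0.15, 95% interval -0.01 to 0.71, unadjusted p = 0.0542, adjusted p = 0.410, limma), and 0.10 as deposited (adjusted p = 0.702, limma). The gene for mitochondrial RNA polymerase, Polrmt, lies on the other strand with its own end 15 bases beyond the end of Hcn2. It stood at 12.7, 12.9, 21.8 and 20.7 scaled TPM, well above Hcn2 and higher in both heterozygous libraries (log2 fold change 0.69, adjusted p = 0.279, limma). It was looked at after its values were known. Whether the counting used strand is not given in the sources used here, and the part of Polrmt reads in the Hcn2 value was not tested.

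Hcn4 was listed at 0.26 and 0.40 TPM in wild-type and at 0.17 and 0.20 TPM in heterozygous libraries. On scaled values it was 0.240 and 0.316 against 0.207 and 0.220, so the groups did not overlap but the gap between the nearest libraries was small. The means were 0.278 ± 0.0533 and 0.213 ± 0.00890 scaled TPM (SD, n = 2). With no filter the log2 fold change was -0.07 (SE 0.06, adjusted p = 0.702, limma). With a mean of at least 0.1 TPM and a pseudocount of 0.1 it was -0.26 (adjusted p = 0.763, limma).

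The level of Hcn4 relative to Hcn2 is given here as a description, since its separation follows from that of both genes on scaled TPM. The ratio of Hcn4 to Hcn2 TPM was 0.277 and 0.261 in wild-type libraries and 0.138 and 0.131 in heterozygous libraries. Put the other way, there were 3.62 and 3.83 Hcn2 transcripts per Hcn4 transcript in wild-type hearts and 7.24 and 7.65 in heterozygous hearts. The means of 0.269 ± 0.0107 and 0.134 ± 0.00530 (SD, n = 2) differ by -0.135. The exact permutation p was 0.333, the smallest that 2 libraries against 2 can give. Rounding of the deposited values to 2 decimals leaves the highest heterozygous ratio at no more than 0.143 and the lowest wild-type ratio at no less than 0.257. The counting error of Hcn4, at 0.40 TPM or less, is unknown, and the SD rests on 2 libraries. A ratio within a library does not depend on the scaling factor, and this pair was named for comparison with earlier results of these data known.

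**Figure D2:**
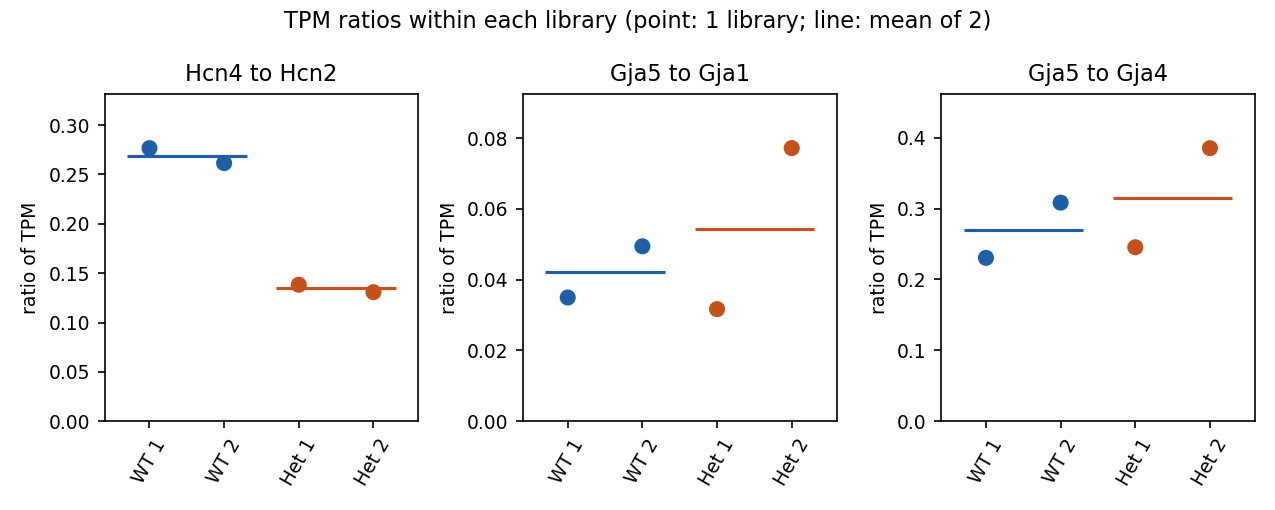
Ratio of TPM within each library for 3 gene pairs, with points for libraries and lines for genotype means. Hcn4 to Hcn2 lies in 2 separate groups (0.261 to 0.277 and 0.131 to 0.138), while Gja5 to Gja1 and Gja5 to Gja4 overlap.

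Of the summed TPM of Hcn2, Hcn3 and Hcn4, Hcn2 made up 75.8% and 76.5% in wild-type and 87.2% and 87.9% in heterozygous libraries. Hcn4 made up 21%, 20.0%, 12.1% and 11.5%. Hcn3 took 3.23% and 3.5% in wild-type and 0.709% and 0.575% in heterozygous libraries, from levels of 0.037, 0.055, 0.012 and 0.011 scaled TPM, which rest on values near the last deposited decimal.

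**Figure D3:**
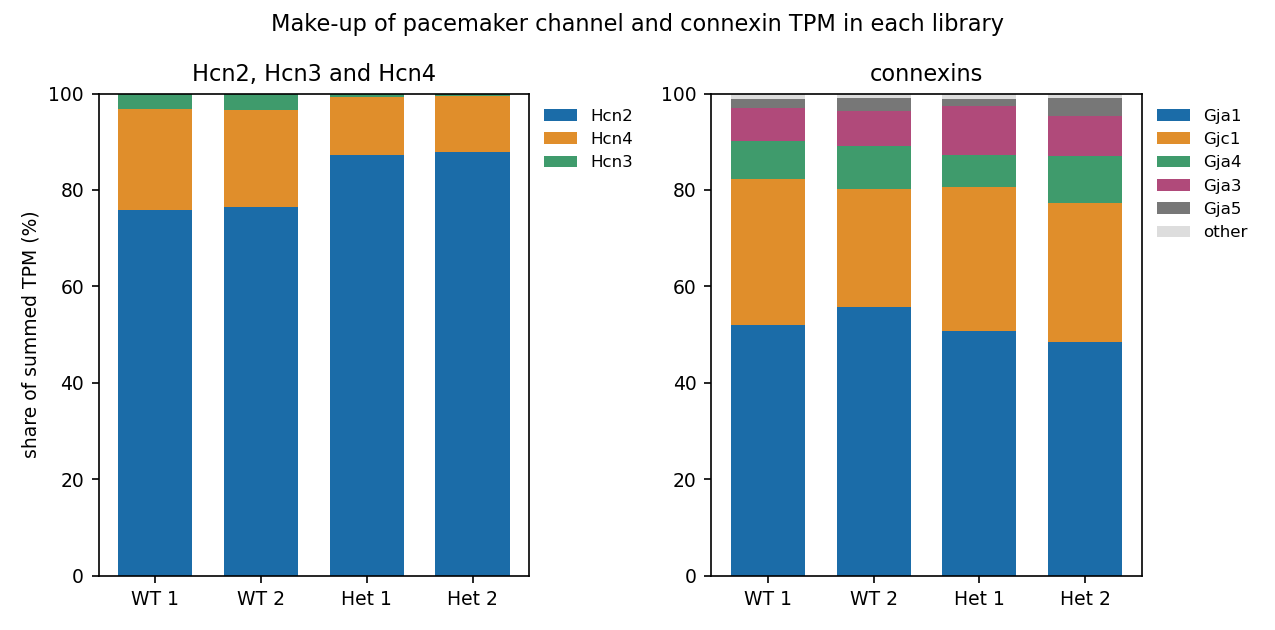
Share of the summed TPM of Hcn2, Hcn3 and Hcn4 and of the connexins (percent, stacked bars, 1 bar per library). The Hcn4 share is 20.0% to 21% in wild-type and 11.5% to 12.1% in heterozygous libraries, while the Gja1 share lies between 48.4% and 55.6%.

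Gja1 encodes connexin 43, the gap junction protein of working ventricular and atrial muscle, and lies on chromosome 10 (56377330 to 56402513, plus strand). It has 8 transcript models, of which 6 are coding, with at most 3 exons in a coding model. It was listed at 20.31 and 28.33 TPM in wild-type and at 17.05 and 16.98 TPM in heterozygous libraries. On scaled values it was 18.8 and 22.4 against 20.8 and 18.7. The groups overlapped after scaling, while as deposited both heterozygous libraries were lower. The means were 20.6 ± 2.54 and 19.7 ± 1.5 scaled TPM (SD, n = 2). The log2 fold change was -0.05 (SE 0.17, 95% interval -0.46 to 0.35, adjusted p = 0.910, limma), and -0.47 as deposited (adjusted p = 0.178, limma), beside the median of -0.35 over all tested genes. With mitochondrial genes removed it was -0.38, beside a median of -0.31 over the genes tested there. With factors set from cardiomyocyte markers it was 0.15, so no direction holds for Gja1 under every scaling.

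Gja5 encodes connexin 40, found in atrial muscle, the His-Purkinje system and arterial endothelium. It lies on chromosome 3 (96904693 to 97077416, plus strand, 3 transcript models of at most 4 exons), where its span overlaps Gpr89 and other genes on the opposite strand. It was listed at 0.71 and 1.40 TPM in wild-type and at 0.54 and 1.31 TPM in heterozygous libraries. On scaled values it was 0.656 and 1.10 against 0.658 and 1.44. The first library of each genotype was low and the second high, and the spread within a genotype was larger than the difference between the means of 0.880 ± 0.317 and 1.05 ± 0.552 scaled TPM (SD, n = 2). The log2 fold change with no filter was 0.11 (SE 0.25, adjusted p = 0.885, limma), and as deposited it was -0.10. Gpr89 stood at 1.36, 1.17, 1.38 and 1.07 scaled TPM and was higher in the first library of each genotype. The ratio of Gja5 to Gja1 was 0.0350, 0.0494, 0.0317 and 0.0771 (exact permutation p = 1).

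On scaled TPM, 6 of the 10 atrial markers had the same order of libraries as Gja5 and 4 (Nr2f1, Nr2f2, Kcna5 and Bmp10) had another. Gja5 itself was almost equal in wild type 1 and heterozygous 1 on that scale. As deposited, Gja5 was lowest in heterozygous 1 (0.54 TPM) and highest in wild type 2 (1.40 TPM). The same 6 markers were lowest in wild type 1 as deposited, so they did not share its order there. Myl7, the atrial myosin light chain, was at 301, 804, 632 and 1028 scaled TPM, and Sln, which encodes the sarcoplasmic reticulum protein sarcolipin of atrial muscle, at 10.9, 45.8, 27.6 and 52.4. Nr2f2, a transcription factor of atrial muscle, was at 2.40, 2.48, 3.23 and 2.33, and Kcna5, an atrial potassium channel, at 1.82, 1.80, 1.86 and 1.69 scaled TPM, both lowest in heterozygous 2. The summed level of the 10 atrial markers, carried by Nppa, Myl7 and Myl4, was 824 and 2369 in wild-type and 1933 and 3292 in heterozygous libraries, with none of the 10 listed at 0 in all libraries. Arterial endothelial markers summed to 32.2, 30.7, 32.6 and 28.6, and Gja4, the arterial connexin 37, stood at 2.85, 3.58, 2.68 and 3.73 scaled TPM. The ratio of Gja5 to Gja4 was 0.231, 0.308, 0.245 and 0.385 (exact permutation p = 0.667, chosen after its values were seen). Over 4 libraries the order that Gja5 and these 6 markers share, on scaled TPM only, is a description. The part of atrial tissue in the Gja5 values was not tested.

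**Figure D4:**
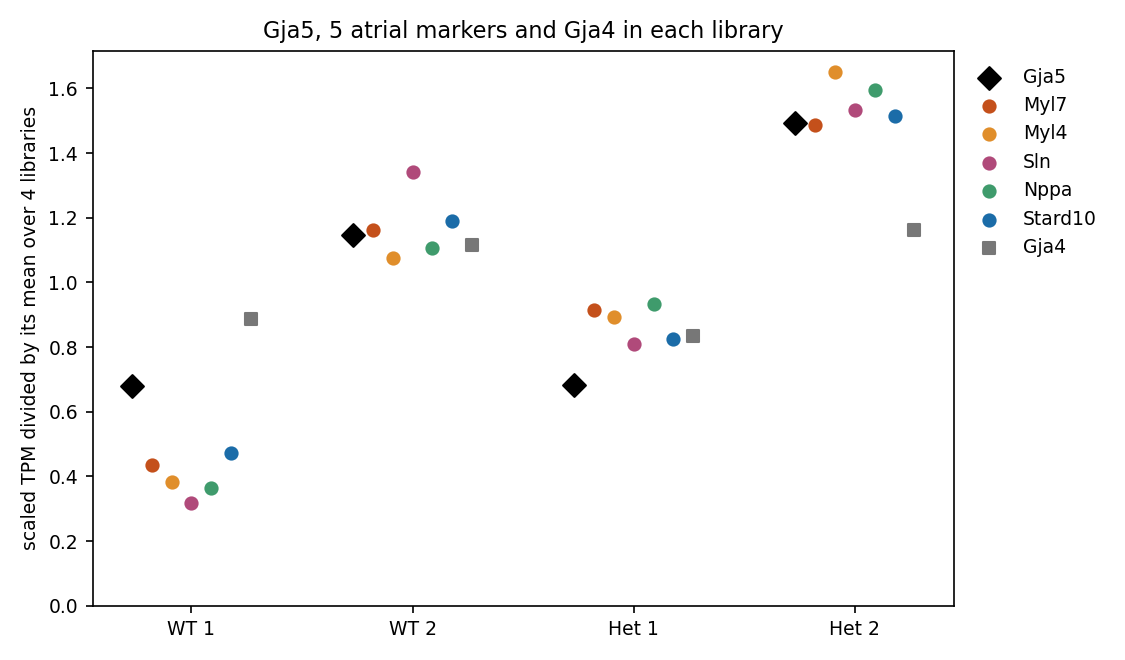
Scaled TPM of Gja5, the 5 most abundant atrial markers and Gja4, each divided by its own mean over the 4 libraries. Gja5, these 5 markers and Gja4 are all highest in heterozygous 2. The markers are lowest in wild type 1, and Gja4 is lowest in heterozygous 1 and varies less. The 4 atrial markers whose order differs from that of Gja5 are not drawn.

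The remaining connexins showed no called gene. Gjc1, connexin 45 of the nodes and developing heart, was at 10.9, 9.86, 12.2 and 11.1 scaled TPM (adjusted p = 0.680, limma), but lower in both heterozygous libraries as deposited, and was the second connexin by share, at 24.5% to 30.2%. Gja1 had the largest share in every library (52.0%, 55.6%, 50.8% and 48.4%), and Gja5 had 1.82%, 2.75%, 1.61% and 3.74%. Of the 17 connexins listed beside the members, 4 were at 0 in all libraries, 3 were tested and 0 were called by limma, and 0 had an unadjusted p under 0.05, beside 12.3% of all tested genes. Gjd3 was listed at 0 in the wild-type libraries and at 0.04 and 0.08 TPM in the heterozygous ones.

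Genes that work with these channels were read from lists. None of the lists held a gene called by limma. Among 13 partners of the sodium channel, all tested, 5 were separated as lower and 3 as higher, beside 24.0% and 23.0% of all tested genes. As deposited the counts were 8 and 2, beside the 67.8% and 2.32% given above. Nedd4l, a ubiquitin ligase that acts on sodium channels, was at 6.96, 9.53, 17.8 and 16.2 scaled TPM (log2 fold change 0.98, SE 0.19, adjusted p = 0.261, limma). Trpm4, a calcium-activated cation channel, was at 23.6, 30.9, 51.0 and 44.7 (log2 fold change 0.80, adjusted p = 0.311, limma), and both genes were higher in heterozygous libraries as deposited too. Of the 5 separated as lower, Slmap had the most negative fold change, at 10.7, 10.4, 9.16 and 7.65 scaled TPM (log2 fold change -0.31, adjusted p = 0.454, limma). Among 10 tested partners of connexins, 5 were separated as lower and 3 as higher on scaled TPM, and 8 and 0 as deposited. Cdh2, which encodes N-cadherin of the intercalated disc, was at 4.4, 5.37, 3.23 and 3.00 scaled TPM (log2 fold change -0.51, adjusted p = 0.334, limma), and Vcl, which encodes vinculin, at 6.53, 6.38, 4.81 and 3.16 (log2 fold change -0.60, adjusted p = 0.340, limma). Of the 3 separated as higher, Ldb3 had the largest fold change, at 103, 88.2, 129 and 119 scaled TPM (log2 fold change 0.37, adjusted p = 0.448, limma). As deposited Ldb3 was lower in both heterozygous libraries.

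Of 18 transcription factors of conduction tissue 10 were tested, 2 of them separated as lower and 4 as higher on scaled TPM, beside 24.0% and 23.0% of all tested genes. As deposited 6 were lower and 0 higher, beside 67.8% and 2.32%. Tbx3, which keeps nodal identity, was at 1.88, 1.31, 2.22 and 0.967 scaled TPM and overlapped between genotypes. Tbx5, at 1.27, 1.98, 2.44 and 2.23, and Nkx2-5, at 3.67, 4.84, 3.16 and 5.06, were not called either (adjusted p of Tbx5 = 0.432, limma). Hopx, a homeodomain factor of the conduction system, was lower in both heterozygous libraries (log2 fold change -0.55, adjusted p = 0.409, limma). Conduction system markers were sparse, with 3 of 11 tested. Of these, 2 were separated as lower and 1 as higher on scaled TPM (24.0% and 23.0% of all tested genes), and 2 and 0 as deposited (67.8% and 2.32%). Over all 11, tested or not, 3 were lower and 4 higher on scaled TPM, and 4 and 2 as deposited. Of the genes with a mean of at least 0.1 TPM, which some of the 11 do not reach, 22.6% were lower and 22.2% higher on scaled TPM. Cntn2, a Purkinje marker, stood at 0.591, 0.473, 0.682 and 0.384 scaled TPM. The summed level of the 11 markers was 14.9, 14.4, 12.7 and 14.3 scaled TPM, with wild type 2 and heterozygous 2 almost equal. Fibroblast markers summed to 85.7, 110.3, 78.9 and 84.8 scaled TPM. None of the 11 conduction markers was listed at 0 in every library. The part of the number of conduction cells in these values was not tested. Summed ventricular markers, carried by Myl2 and Myl3, were 9346, 8606, 6125 and 7479 scaled TPM. Of the 6 in that list, 3 were separated as lower and 1 (Irx4) as higher, beside 24.0% and 23.0% of all tested genes. As deposited all 6 were lower, beside 67.8%. The part of ventricular tissue in these values was not tested.

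The genes of mean scaled TPM of at least 5 whose pattern over the 4 libraries was most like a member were found by the root mean square difference of centred log2(scaled TPM + 1), in which the pseudocount flattens the low members. For Scn4b the closest were Hsbp1 and Rplp0 (0.00779 and 0.0144), for Hcn2 Ecm1, Gkap1 and Tsta3, and for Hcn4 Tpd52l2, Mphosph8 and Tnpo3. For Gja1 they were Ryr2, Kat2b and Mir100hg, and for Gja5 Znrd1, Rbm8a and Gpx1. Within 0.1, a wider distance than those of the genes named, lay 646 genes for Hcn4, 440 for Scn4b, 271 for Gja1, 157 for Hcn2 and 43 for Gja5.

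**Figure D5:**
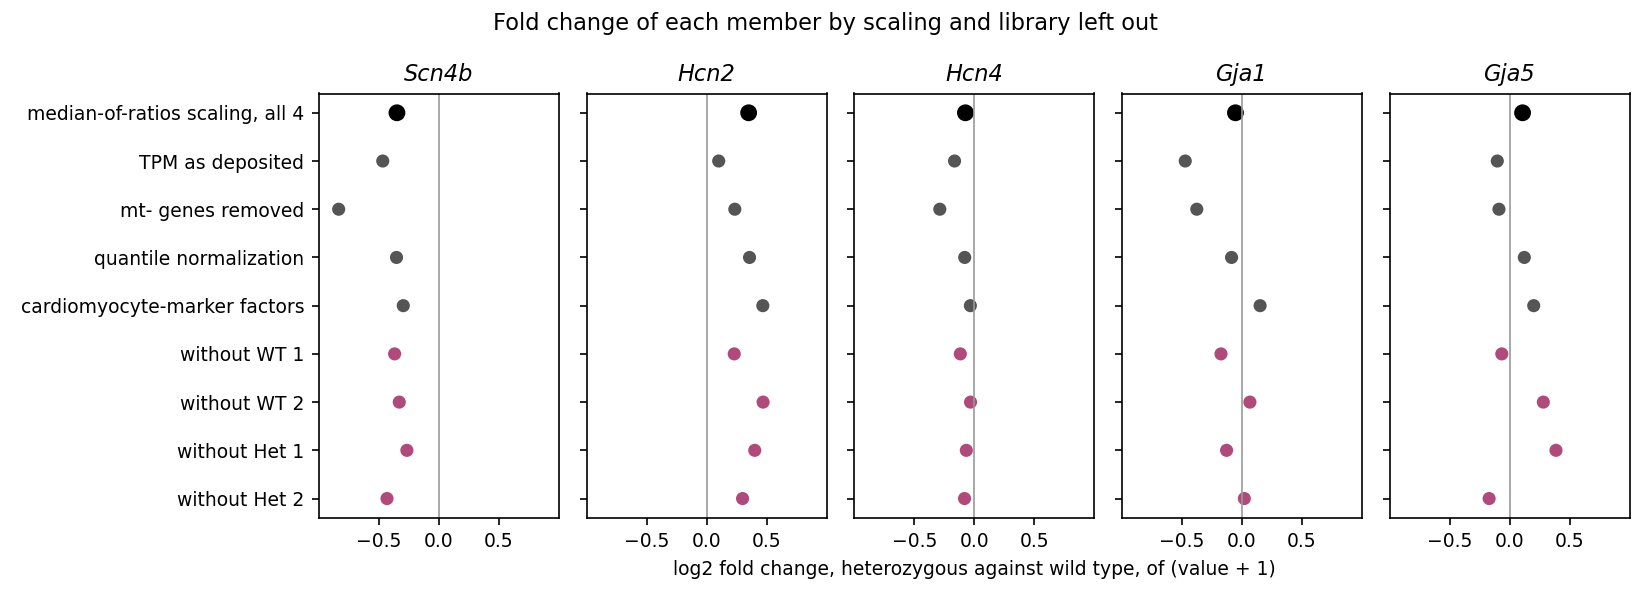
Log2 fold change of each member under 5 scalings (black and grey) and with each library left out (magenta), on log2(value + 1). Scn4b and Hcn4 lie below 0 and Hcn2 above 0 under all 9 settings, while Gja1 and Gja5 fall on both sides. Points are differences of group means. Scn4b, Hcn4 and Gja5 were under the filter and were not tested under these settings.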

How the data were processed

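The authors extracted RNA from mouse hearts, captured mRNA with beads, trimmed reads with Trim Galore, aligned them to mm10 with STAR and quantified genes with RSEM, per the labels and the methods. The deposited values are TPM per gene, rounded to 2 decimals. The annotation release, strand setting and depth are not given in the sources used here. All columns of the table were mapped to samples by their names.

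TPM were divided by median-of-ratios factors, a pseudocount of 1 was added, and log2 values of the 10036 genes with a mean of at least 1 TPM were fitted with limma (3.58.1) in R (4.3.3). The eBayes step used a trend, tests were two-sided, and p-values were adjusted by Benjamini-Hochberg across the tested genes. Fold changes are on that scale, which understates low genes. Because the values are TPM, no count model was fitted. Ratios were compared by exact permutation. Python (3.11.15) and pandas (2.3.3) handled the tables, and the fit was tested on simulated data. Positions are from GENCODE and promoters from RefSeq, with windows found for all 5 members.

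Genes named beside the members are those of a fixed set and, from each of 20 lists, up to 3 per direction with the smallest unadjusted p among separated genes; of these, only some are described, and some genes that the rule names are not reported here. The members and lists were chosen with earlier results of these data known. Alternatives were other scalings, pseudocounts and filters, eBayes without trend or robust, a replicate block, and each library left out. A mean of at least 0.1 TPM with a pseudocount of 0.1, also as deposited or with the block, and the fit with no filter and the block were added after the values were seen.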

Additional observations from a re-analysis of the deposited data

How the results depend on the processing

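Across the alternatives no member passed the threshold wherever it was tested. Scn4b and Hcn4 stayed lower and Hcn2 higher in all of them. The log2 fold change of Scn4b was -0.35 and that of Hcn4 -0.07 on the main scale, and they moved to -0.47 and -0.16 as deposited, to -0.84 and -0.29 with mitochondrial genes removed, to -1.07 and -0.26 with a pseudocount of 0.1, and to -0.0890 and -0.0177 with a pseudocount of 5. With a mean of at least 0.1 TPM and a pseudocount of 0.1 on TPM as deposited, added later, they were -1.40 (adjusted p = 0.162, limma) and -0.58. Hcn2, at 0.35 on the main scale, was at 0.10 as deposited, 0.23 with mitochondrial genes removed and 0.47 with factors from cardiomyocyte markers. With a pseudocount of 0.1 it was at 0.58, and with a pseudocount of 5 at 0.13. In the added fit with a mean of at least 0.1 TPM and a pseudocount of 0.1 its adjusted p was 0.457 (unadjusted p = 0.0442, limma). Gja1 was at -0.38 with mitochondrial genes removed and turned to 0.15 with factors from cardiomyocyte markers. A mean of at least 5 TPM left only Gja1 among the members.

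With a library left out, where the lone library is assumed to vary like the other genotype, the log2 fold change ranged from -0.43 to -0.27 for Scn4b, 0.23 to 0.47 for Hcn2, -0.12 to -0.03 for Hcn4, -0.17 to 0.0658 for Gja1 and -0.17 to 0.39 for Gja5. Gja1 was above 0 without wild type 2 and, at 0.0193, without heterozygous 2, and Gja5 below 0 without wild type 1 or heterozygous 2. The difference in the ratio of Hcn4 to Hcn2 ranged from -0.142 to -0.127, and that of Gja5 to Gja1 from -0.0105 to 0.0350.

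The number of genes called was 3. It was 13 as deposited, 14 with mitochondrial genes removed, 17 with cardiomyocyte factors, 5 with robust eBayes, 8 with a mean of at least 0.1 TPM and a pseudocount of 0.1, 6 with the same on TPM as deposited, and 4 to 15 with a library left out. With no filter limma called 0, and 2133 genes had an unadjusted p under 0.05. Same-numbered libraries share only a number (correlation of their deviations 0.101). With a replicate block 11 genes were called, and the adjusted p was 0.361 for Hcn2 and 0.914 for Gja1. With no filter and the replicate block 0 were called (2141 at an unadjusted p under 0.05), and with the replicate block, a mean of at least 0.1 TPM and a pseudocount of 0.1, Scn4b was at -1.07 and Hcn4 at -0.26 and 2 genes were called, against 8 without the block. TPM keep no depth, so counting error of Scn4b and Hcn4, which lie under 1 TPM, is unknown.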
